A study of Mus musculus with 10 samples.

Results

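WT blastocysts were set against CAST sperm, to read how much of the methylation that sperm carried was found in the embryo 96 h after fertilisation, where it was kept, and where tiles unmethylated in sperm were methylated in the embryo. The unit is a 100-bp tile of an autosome in which the methylated and unmethylated counts, summed over its cytosine positions, came to at least 10 in each of the 4 libraries, with no demand on any other library. This left 19476 tiles of 183899 autosomal tiles that had a count in any file. The tiles were chosen on coverage alone, and no methylation value entered the choice.

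The WT blastocysts came from C57BL/6J x CAST/EiJ crosses of genotype WT, made by in vitro fertilisation of eggs from superovulated females aged 7 to 10 weeks with epididymal sperm of adult CAST/EiJ males. They were collected 96 h after fertilisation, and each library pooled 4 blastocysts, so few genome copies entered it. The sperm libraries came from CAST/EiJ mice of genotype WT. WT zygotes of the same cross (13 h, 40 to 50 per library) and zygotes and blastocysts labelled CKO, with the genotype maternal Tet3 KO, were read only as outside measurements of tiles chosen in the other libraries. The labels name no Cre driver or promoter for the knockout. Each group had 2 libraries, described in the labels as biological duplicates, so every group SD given here is over n = 2. For a WT blastocyst minus sperm difference, ± is the square root of the summed squares of the 2 group SDs. For a share of the sperm level it is the SD over the 2 WT blastocyst libraries, with the mean sperm level held fixed. For a difference between tile lists in outside libraries it is the SD of the differences found within the 2 libraries.

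The assay was reduced representation bisulfite sequencing (RRBS), in which MspI fragments, rich in CpG sites, are converted with bisulfite and sequenced. Bisulfite reads 5-methylcytosine and 5-hydroxymethylcytosine alike, so a level is the percent of counts that stayed unconverted, whichever of the marks they carried. Mouse sperm DNA is heavily methylated outside CpG islands. After fertilisation the paternal genome loses much of that methylation, by oxidation of 5-methylcytosine, in which TET3 acts, and by replication without full maintenance, and the blastocyst is known as the stage near the low point. Imprinting control regions, which carry methylation on a single parental allele, are known to keep it through this period.

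The total count was 1053723 and 1093843 in the WT blastocyst libraries, against 2535229 and 2315949 in the sperm libraries. A tile held a median of 24 and 26 counts in WT blastocysts, against 55 and 49 in sperm, summed over a median of 3 positions. A read that covers several positions of a tile is counted at each of them, so these counts are not numbers of reads. The deepest position of a tile had a median of 11 and 12 counts in WT blastocysts, against 23 and 21 in sperm. Whether the embryo files hold reads of both parental alleles or of the sperm-derived allele only is not given in the sources used here. The fate of sperm methylation and the presence of maternal DNA therefore cannot be told apart from the labels.

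Imprinting control regions were read first, since they bear on that question. At the maternally methylated Kcnq1ot1 region, 0 of 21 and 0 of 35 counts were methylated in WT blastocysts, against 0 of 112 and 0 of 140 in sperm. Over both WT blastocyst libraries a count of 0 would allow a share of up to 5.36% there if every count were an independent read. The Igf2r/Airn, Grb10, Plagl1 and Zrsr1 regions, also methylated on the maternal allele, had 0 methylated counts of 55, 144, 16 and 67 in the pooled WT blastocyst libraries. In sperm the Igf2r/Airn region had 1 of 190 methylated counts and Plagl1 had 0 of 62. Sperm was above 0 at Grb10 with 25 of 246, all 25 in replicate 2, and at Zrsr1 with 16 of 125.

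The Snrpn region, also methylated on the maternal allele, did hold methylated counts. It had 14 of 89 and 14 of 94 methylated counts in WT blastocysts, against 0 of 193 and 0 of 163 in sperm. The pooled WT blastocyst level was 15.3% (95% exact Clopper-Pearson interval 10.4 to 21.3%), and the sperm count of 0 allows up to 0.843%. At the paternally methylated H19/Igf2 region, 10 of 10 counts were methylated in WT blastocyst replicate 1 and replicate 2 had none, against 8 of 8 and 8 of 12 in sperm. At the paternally methylated Dlk1-Gtl2 region, 2 of 5 and 0 of 9 counts were methylated in WT blastocysts, against 22 of 22 and 20 of 20 in sperm. These windows hold few positions. A read is counted at each position it covers, so the intervals and limits treat linked counts as independent and are too narrow.

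The tiles fell into 3 classes by sperm alone. The sperm-methylated class, at 80% or more in each sperm library, held 6264 tiles (32.2%). The sperm-unmethylated class, at 20% or less in each, held 10116 tiles (51.9%). The remaining 3096 tiles (15.9%) were sperm-intermediate. Since the classes were set on the sperm values, the sperm level of a class is a description. When a class was set on 1 sperm library and read in the other, the sperm-methylated level was 96.0 and 95.9%, so the choice moved the sperm mean by less than 1 point. The sperm-unmethylated level read this way was 1.42 and 1.31%.

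Most of the methylation of sperm-methylated tiles was absent in WT blastocysts. Their mean level was 27.0 and 25.9% in WT blastocysts, against 96.7 and 96.8% in sperm. Both WT blastocyst libraries lay below both sperm libraries, and the mean difference was -70.3 ± 0.778 points. WT blastocysts thus held 27.3 ± 0.804% of the sperm level. In sperm-intermediate tiles the mean level was 15.3 and 15.1% in WT blastocysts, against 53.4 and 54.0% in sperm, a difference of -38.5 ± 0.435 points. In sperm-unmethylated tiles the direction was the opposite, with 1.72 and 1.55% in WT blastocysts, against 0.910 and 0.922% in sperm, a difference of 0.719 ± 0.118 points. That difference depended on the choice of the class: with the class set on sperm replicate 1 and read against replicate 2 it was 0.317 points, and with the replicates exchanged it was 0.405 points. Over all tiles the level was 12.0 and 11.5% in WT blastocysts, against 40.1 and 40.2% in sperm. An exact two-sided permutation test over the 4 libraries gave p = 0.333 for each of these differences, the smallest value that 2 against 2 libraries can give, so none can pass a threshold of 0.05.

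Single tiles were tested by edgeR's quasi-likelihood F-test with Benjamini-Hochberg adjustment at 0.05 over all 19476 tiles. The level fell in 7429 tiles (38.1%) and rose in 205 tiles (1.05%) of WT blastocysts relative to sperm. The falls were of 20 points or more in 7404 tiles, and the rises in 134. By class, 5781 of the 6264 sperm-methylated tiles fell (92.3%) and 0 rose, with 0 also at an unadjusted p below 0.05. These tiles averaged 96.7% in sperm by the choice of the class, so they had little room to rise. Of the sperm-intermediate tiles 1640 fell (53.0%) and 7 rose. Of the sperm-unmethylated tiles 8 fell and 198 rose (1.96%). The median difference was -76.2 points over the sperm-methylated tiles that fell and 25.9 points over the sperm-unmethylated tiles that rose. The calls depended on how the spread was modelled and on the number of libraries: with a single negative binomial dispersion for all tiles, or without either WT blastocyst library, 0 tiles passed in either direction. With the single dispersion 6739 tiles were lower and 146 higher at an unadjusted p below 0.05. Without sperm replicate 1 there were 2955 falls and 22 rises, and without sperm replicate 2 there were 3382 and 29.

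From a sperm level of 20% upwards, the share of the sperm level that was left hardly depended on how methylated a tile was in sperm. Tiles at 20 to 40% in sperm held 29.8% of their sperm level in WT blastocysts, and tiles at 40 to 60% held 28.2%. The share was 27.8% at 60 to 80%, 27.0% at 80 to 90%, 27.1% at 90 to below 100% and 27.9% in the 1547 tiles at 100% in both sperm libraries. The mean WT blastocyst level climbed with the sperm level over these bins, with 8.94 ± 0.178% at the low end and 27.9 ± 1.43% at the high end. Within the sperm-methylated class, Pearson's r between a tile's mean WT blastocyst level and its mean sperm level was 0.0659 over 6264 tiles, and the tiles share libraries and depth. Tiles below 20% in sperm did not follow the same share. The 743 tiles at 5 to 20% in sperm had 5.81 ± 0.0862% in WT blastocysts, against 10.9 ± 0.500% in sperm, which is 53.5% of the sperm level. The 9529 tiles at 0 to 5% had 1.41 ± 0.117% in WT blastocysts, against 0.396 ± 0.0123% in sperm.

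**Figure D1:**
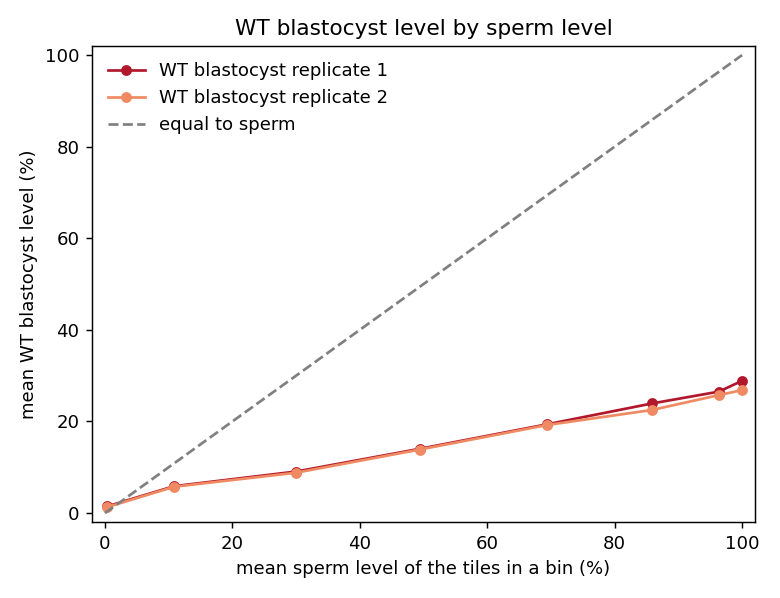
Mean WT blastocyst level (%, vertical axis) in each replicate against the mean sperm level (%, horizontal axis) of tiles binned by sperm level; the dashed line marks equal levels. Both replicates climb along a shallow line to 28.9 and 26.9% at a sperm level of 100%, and only the lowest bin lies above the dashed line.

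The sperm-intermediate tiles followed the same pattern when they were opened up. Of these tiles, 1622 (52.4%) held both a position at 20% or less and a position at 80% or more in the pooled sperm libraries, so their tile level was an average over unlike positions. Of 7961 positions with enough sperm counts, 30.0% were at 20% or less, 41.0% were at 80% or more and 28.99% lay between. The positions at 80% or more in sperm held 25.9 and 27.0% in WT blastocysts (971 positions), close to the level of sperm-methylated tiles. Those at 20% or less in sperm held 1.36 and 1.49% (726 positions).

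Behind the mean WT blastocyst level of 26.4% lay a wide range of single tiles. The median sperm-methylated tile was at 21.9 and 20.0% in WT blastocysts, against 98.0 and 98.98% in sperm. WT blastocyst replicate 1 had 1589 sperm-methylated tiles at 0% and replicate 2 had 2006, and 796 tiles (12.7%) were at 0% in both. A level of 20% or less was found in 48.3 and 51.0% of these tiles in WT blastocysts, against 0 in sperm by the choice of the class. At the other end, 782 and 820 tiles were at 60% or more in WT blastocysts, and 79 and 127 tiles were at 100%. High levels were uncommon: 1.92 and 3.02% of tiles lay at 90% or more in WT blastocysts, against 92.2 and 90.9% in sperm.

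**Figure D2:**
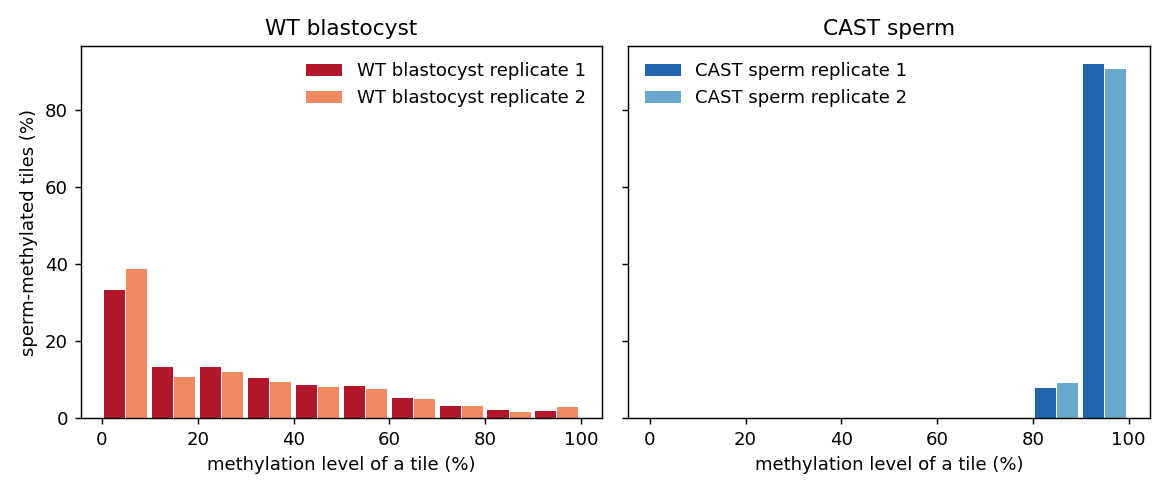
Share of the 6264 sperm-methylated tiles (%, vertical axis) by methylation level in bins of 10 points (horizontal axis), for the WT blastocyst replicates (left) and the sperm replicates (right). In WT blastocysts the lowest bin holds 33.4 and 38.9% of the tiles, while in sperm all tiles lie at 80% or more by the choice of the class.

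Which tiles stayed high was only partly shared between the WT blastocyst libraries. Over the sperm-methylated tiles, Pearson's r between the WT blastocyst replicates was 0.321, and the median gap between them was 18.2 points, against 2.63 points between the sperm replicates. Of the 782 tiles at 60% or more in replicate 1, 28.6% were also at 60% or more in replicate 2, against 10.9% of the other sperm-methylated tiles. In the reverse direction the shares were 27.3% and 10.2%. Tiles picked in replicate 1 had a mean of 41.8% in replicate 2, against 23.6% for the rest. Tiles picked in replicate 2 had a mean of 41.4% in replicate 1, against 24.8% for the rest. The replicate r was 0.265 over tiles with 10 to 14 counts in the shallower WT blastocyst library and 0.561 over the 160 tiles with 50 or more.

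Lists of retained, erased and gained tiles were drawn from both WT blastocyst libraries, and the values that chose them are given without a test. Retained tiles were sperm-methylated and at 60% or more in each WT blastocyst library: 224 tiles (3.58%). Erased tiles were sperm-methylated and at 10% or less in each: 1208 tiles (19.3%). Gained tiles were sperm-unmethylated and at 40% or more in each: 26 tiles (0.257%). Of the retained tiles 53 still passed the test as lower than sperm, of the erased tiles all 1208 did, and 24 of the gained tiles passed as higher. The test and the lists used the same values, so these counts describe the lists.

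Among the retained tiles, chr12:5056601-5056700 (mm9) had the most counts at full methylation. It had 48 of 48 and 28 of 28 methylated counts in WT blastocysts, against 110 of 112 and 70 of 72 in sperm. In WT zygotes it had 20 of 20 and 26 of 26, and in CKO blastocysts 27 of 48 and 3 of 12. The tile chr1:24426101-24426200 had 32 of 32 and 39 of 40 in WT blastocysts, against 74 of 76 and 120 of 120 in sperm. It was also high in both outside groups, with 64 of 64 and 32 of 32 in WT zygotes and 12 of 16 and 36 of 48 in CKO blastocysts. The other 8 tiles named by the same rule lay at chr13:106531201, chr16:93141101, chr12:91202201, chr4:137812101, chr2:171629301, chr4:128538901, chr2:165230401 and chr2:8589301. Their lower WT blastocyst library was at 92.9% or more. Only chr2:8589301 of these 8 had a library below 100%. Some rested on few WT blastocyst counts, with 12 and 10 at chr4:137812101 and 10 and 12 at chr2:165230401. Outside libraries varied: in WT zygotes chr13:106531201 had 54 of 54 and 25 of 26, and chr12:91202201 had 28 of 57 and 4 of 12.

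Just inside the retained threshold, chr16:96025201-96025300 had 24 of 40 and 8 of 12 methylated counts in WT blastocysts, against 105 of 108 and 97 of 98 in sperm. Just outside it, chr10:61385301-61385400 had 16 of 16 and 43 of 72 in WT blastocysts, against 40 of 40 and 50 of 52 in sperm. These tiles differ by less than the spread between the WT blastocyst replicates, so the edge of the list is soft.

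At the erased end, the fall spanned the whole scale. The tile chr3:52120401-52120500 had 0 of 33 and 0 of 60 methylated counts in WT blastocysts, against 108 of 108 and 66 of 66 in sperm (edgeR quasi-likelihood adjusted p = 9.71e-09). The tile chr3:94994301-94994400 had 0 of 40 and 0 of 50 in WT blastocysts, against 66 of 66 and 74 of 74 in sperm (edgeR adjusted p = 2.04e-08). It was not bare in the outside libraries, with 30 of 30 and 17 of 40 in WT zygotes and 18 of 26 and 14 of 16 in CKO blastocysts. The other 6 tiles with the largest falls, at chr2:164593501, chr14:21597601, chr8:89672901, chr9:104009701, chr10:62940101 and chr8:46037401, were likewise at 0% in both WT blastocyst libraries and at 100% in both sperm libraries. Around the erased threshold, chr12:85047801-85047900 lay inside with 6 of 60 and 4 of 66 in WT blastocysts, against 146 of 150 and 82 of 82 in sperm. The tile chr19:26850601-26850700 lay outside with 0 of 56 and 9 of 88, against 217 of 220 and 234 of 236 in sperm.

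Libraries that took no part in the choice gave the lists the same order. In WT zygotes, 144 retained tiles with enough counts averaged 76.3 and 77.5%, against 57.7 and 57.7% in the sperm-methylated tiles that were not retained. That difference was 19.2 ± 0.820 points, and it was seen in both libraries. In CKO blastocysts, 109 retained tiles averaged 48.2 and 46.9%, against 34.7 and 34.7%, a difference of 12.8 ± 0.959 points. In CKO zygotes the difference was 13.7 ± 2.08 points. Erased tiles lay at the low end, with 48.7 and 51.5% in WT zygotes (569 tiles) and 27.1 and 27.2% in CKO blastocysts (619 tiles). Each difference exceeded the spread between the 2 libraries of its group. No further test was run. Few retained tiles were at 60% or more in both CKO blastocyst libraries, 9 of 109 (8.26%), against 4.99% of the tiles that were not retained.

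**Figure D3:**
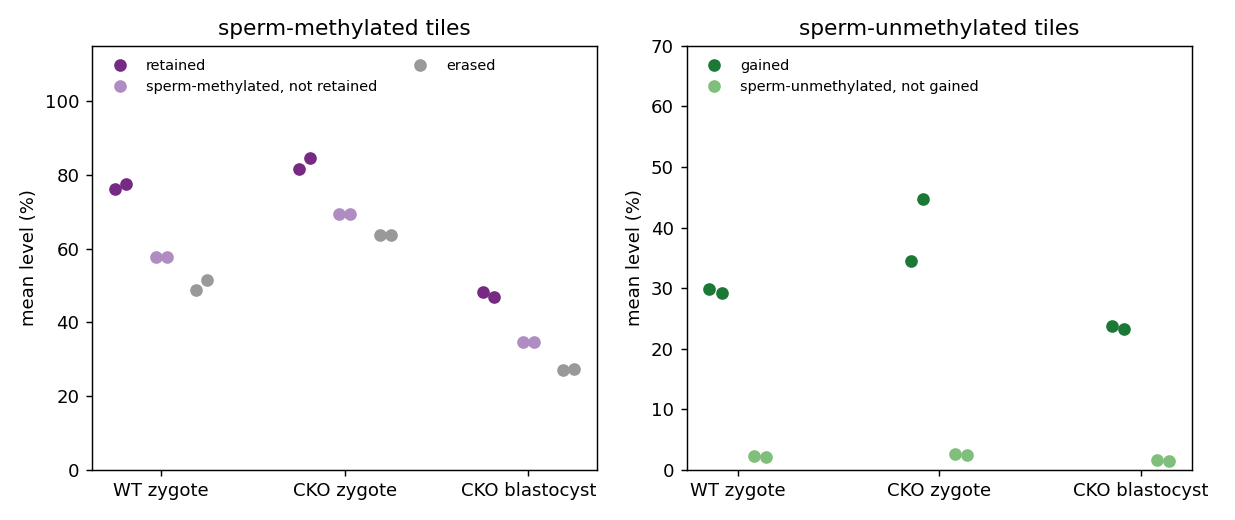
Mean level (%, vertical axis) of tile lists chosen in WT blastocysts, read in the libraries of WT zygotes, CKO zygotes and CKO blastocysts (horizontal axis), 1 point per library. Retained tiles lie above the other sperm-methylated tiles and erased tiles below them in all 6 libraries, and gained tiles lie above the other sperm-unmethylated tiles in all 6.

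The relation to the zygote was graded. Sperm-methylated tiles with enough counts in both WT zygote libraries numbered 3551 and were binned by their mean zygote level. The 191 tiles at 20% or less in WT zygotes had 18.7 ± 3.61% in WT blastocysts, and the 602 tiles at over 20 to 40% had 19.9 ± 1.44%. The level was 25.1 ± 0.608% for over 40 to 60%, 28.8 ± 0.365% for over 60 to 80% and 40.6 ± 0.778% for the 668 tiles over 80%. In that highest bin 10.9% of tiles were retained and 8.08% erased, while in the lowest bin 0 were retained and 24.1% erased. Tile by tile the relation was loose. Pearson's r between a WT blastocyst and a WT zygote library was 0.188 to 0.223 over the 3551 tiles, beside 0.197 between the WT zygote libraries themselves.

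Among sperm-methylated tiles, those with 4 or more cytosine positions had higher levels in WT blastocysts than those with 1. Sperm-methylated tiles with 1 position had 25.5 and 24.4% in WT blastocysts, and those with 2 had 27.1 and 26.0%. With 3 positions the level was 27.1 and 27.3%, with 4 to 5 it was 31.5 and 28.2%, and with 6 or more it was 33.4 and 32.1%. The sperm level moved the other way, with 97.0 and 97.0% at 1 position and 93.7 and 93.3% at 6 or more. The retained share was 2.67% at 1 position and 6.92% at 6 or more (9 of 130 tiles), and the erased share was 22.6% and 12.3%. Tiles with more positions also held more counts, with medians of 40.5 and 54 counts in WT blastocysts at 6 or more positions and 15 and 17 at 1 position. Among tiles with 20 to 49 counts in the shallower WT blastocyst library, the level was 26.5 and 25.3% at 1 position (298 tiles), 25.6 and 25.3% at 2, 27.1 and 28.6% at 3, 30.8 and 28.1% at 4 to 5, and 32.4 and 35.4% at 6 or more (61 tiles). At this depth 2 positions did not stand above 1, and in replicate 2 the level at 4 to 5 was below that at 3. In sperm-unmethylated tiles of any depth, those with 4 or more positions lay lower than those with 1. WT blastocysts had 2.13 and 1.91% at 1 position, 1.75 and 1.69% at 4 to 5, and 0.970 and 0.830% at 6 or more. The levels at 2 and 3 positions lay above that at 1. Sperm had 1.70 and 1.80% at 1 position and 0.320 and 0.329% at 6 or more.

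**Figure D4:**
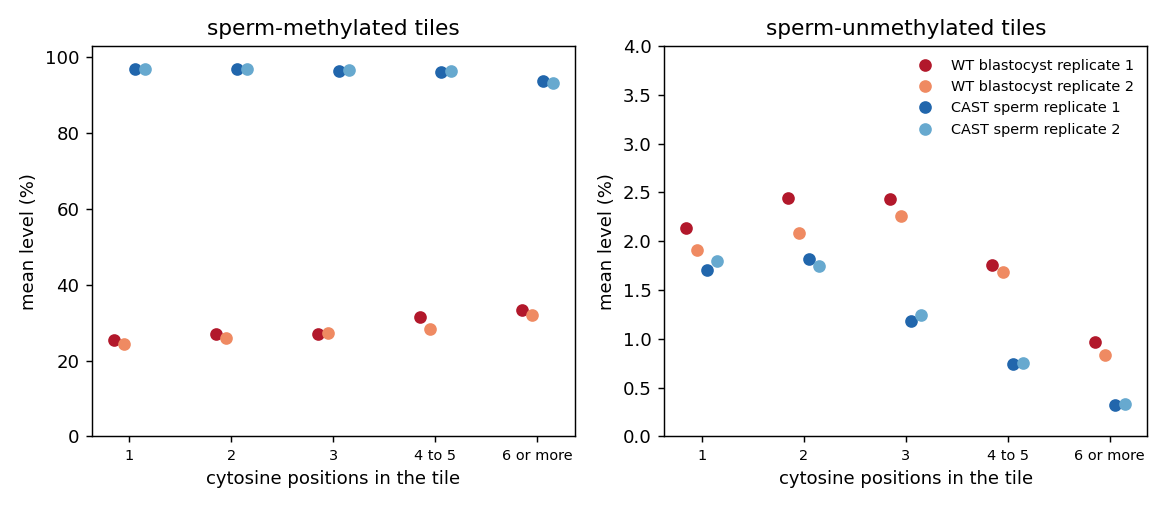
Mean level (%, vertical axes, which differ in scale) by the number of cytosine positions in a tile (horizontal axis), for sperm-methylated tiles (left) and sperm-unmethylated tiles (right), 1 point per library. In sperm-methylated tiles the WT blastocyst replicates reach 33.4 and 32.1% at 6 or more positions, and in sperm-unmethylated tiles they lie above both sperm replicates in every bin.

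The fall was spread over the genome. All 19 autosomes were lower in each WT blastocyst library than in sperm. Chromosome means over sperm-methylated tiles ran from 24.8% on chromosome 8 to 28.2% on chromosome 4 in WT blastocysts. Their r between the replicates was 0.184 over 19 chromosomes, too low over so few to show a shared order. All 237 windows of 5 Mb with at least 10 sperm-methylated tiles were lower in WT blastocysts than in sperm. Their WT blastocyst level ran from 11.7 to 42.5% around a median of 25.8%, and r between the replicates over windows was 0.418.

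The highest of these windows, chr12:5000001-10000000, had 46.4 and 38.5% in WT blastocysts, against 97.6 and 96.0% in sperm, over 14 tiles. Its highest tiles lay near its start. These were the retained tile chr12:5056601-5056700 described above and 2 more retained tiles nearby. The tile chr12:5057701-5057800 had 10 of 12 and 13 of 20 methylated counts in WT blastocysts, against 28 of 28 and 22 of 22 in sperm. The tile chr12:5064101-5064200 had 11 of 14 and 21 of 22, against 34 of 34 and 46 of 46 in sperm. All 3 were at 93.0% or more in both WT zygote libraries. The window was picked as the highest of 237, and no test was run on it. The lowest window, chr6:95000001-100000000, had 11.0 and 12.4% in WT blastocysts over 18 tiles.

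Neighbouring tiles resembled each other only at short range. To leave out reads shared by adjacent tiles, the level of a tile in 1 WT blastocyst replicate was set against its neighbour's in the other. Pearson's r was 0.229 and 0.233 over 521 pairs of adjacent sperm-methylated tiles and 0.217 and 0.142 over 90 pairs at 200 bp to 1 kb. Over 383 pairs at 1 to 10 kb it was 0.0903 and -0.00888, and over 2003 pairs at 10 to 100 kb it was -0.0149 and 0.0102. No 3 retained tiles followed each other within 5 kb, and no 3 gained tiles did.

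The distance to the nearest sperm-unmethylated tile went with the level in an uneven way. The 279 sperm-methylated tiles at 1 to 5 kb had 22.4 and 21.5% in WT blastocysts, and the 957 tiles at 5 to 20 kb had 24.2 and 23.7%. The 4923 tiles at over 20 kb had 27.8 and 26.6%. Erased tiles made up 27.6% of the first of these groups, 21.5% of the second and 18.4% of the third. The 93 tiles within 500 bp broke the order with 28.1 and 27.8%, and 7.53% of them were retained, against 3.72% at over 20 kb. The 12 tiles at 500 bp to 1 kb were too few to place. The sperm level of the other 4 bins lay between 96.2 and 96.9%.

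In tiles that sperm left unmethylated, WT blastocysts were nearly bare as well. Of the 10116 tiles, 8259 (81.6%) had no methylated count in either WT blastocyst library. The 6782 tiles with no methylated count in either sperm library averaged 1.21 and 1.08% in WT blastocysts, where they could only lie at or above sperm. The 3334 tiles above 0% in a sperm library had 2.76 and 2.51% in WT blastocysts, against 2.76 and 2.80% in sperm. The difference of -0.144 ± 0.180 points lay within the spread between replicates. These tiles were picked for a sperm level above 0%, which raises the sperm side, so their difference partly describes the choice. The 198 tiles that rose averaged 32.6 and 28.4% in WT blastocysts, against 1.09 and 1.09% in sperm. They gave 80.1% of the class difference, which itself depended on how the class was set. Without them the class had 1.10 and 1.02% in WT blastocysts, against 0.906 and 0.919% in sperm, a difference of 0.146 ± 0.0624 points. Because the 198 were picked for their rise, their WT blastocyst level and their share of the class difference describe the choice. So does the small difference left without them. In WT zygotes, which the choice did not use, 160 of them averaged 21.1 and 21.3%, against 1.89 and 1.74% in the sperm-unmethylated tiles that did not rise. The 8 tiles that fell had 0 and 0% in WT blastocysts, against 15.1 and 13.4% in sperm.

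The 26 gained tiles lay on 14 chromosomes. Their sperm level averaged 4.31%, against 0.916% over all sperm-unmethylated tiles, so many were not fully bare in sperm. Of the 26, 7 (26.9%) lay within 1 kb of another sperm-unmethylated tile, against 56.1% of all sperm-unmethylated tiles. Tiles with 4 or more positions made up 8 of the 26 (30.8%), against 60.8% of all sperm-unmethylated tiles. Of the 3568 tiles with 6 or more positions 0 were gained, against 0.257% of the whole class. Here too the libraries shared only part of the list, since 98 and 86 tiles reached 40% in WT blastocyst replicates 1 and 2. The tiles that reached it in replicate 1 averaged 26.5% in replicate 2, against 1.31% for the rest, and those of replicate 2 averaged 25.2% in replicate 1, against 1.52%.

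Among the gained tiles the highest was chr15:73670401-73670500. It had 10 of 10 and 36 of 40 methylated counts in WT blastocysts, against 0 of 38 and 0 of 44 in sperm (edgeR quasi-likelihood adjusted p = 4.8e-06). The adjacent tiles chr8:34594801-34594900 and chr8:34594901-34595000 were both gained. The first had 30 of 39 and 30 of 30 in WT blastocysts, against 2 of 105 and 3 of 96 in sperm (edgeR adjusted p = 9.45e-07). The second had 30 of 39 and 25 of 30, against 0 of 105 and 0 of 96 in sperm (edgeR adjusted p = 6.14e-07). The totals of the pair were equal in each of the 4 libraries, as they are for reads counted in both tiles, so the pair is not 2 independent observations.

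The tile chr8:106863901-106864000 was high outside the comparison as well. It had 33 of 51 and 17 of 21 in WT blastocysts, against 1 of 117 and 2 of 129 in sperm (edgeR adjusted p = 3.43e-06), and 74 of 96 and 19 of 69 in WT zygotes. The tile chr10:105906401-105906500 was different, with 10 of 15 and 33 of 50 in WT blastocysts, against 1 of 100 and 0 of 120 in sperm, and 7 of 95 and 0 of 20 in WT zygotes. The remaining 5 named tiles lay at chr15:96620701, chr7:118922701, chr13:100016101, chr7:64664101 and chr17:29979801, and all passed the test. A further tile among the 8 largest rises, chr5:150864501-150864600, was sperm-intermediate, with 12 of 15 and 16 of 16 in WT blastocysts, against 14 of 59 and 3 of 32 in sperm. Just inside the threshold, chr1:15257101-15257200 had 4 of 10 and 6 of 15 in WT blastocysts, against 5 of 32 and 4 of 20 in sperm. Just outside it, chr19:22493601-22493700 had 5 of 13 and 4 of 10, against 0 of 52 and 0 of 32.

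**Figure D5:**
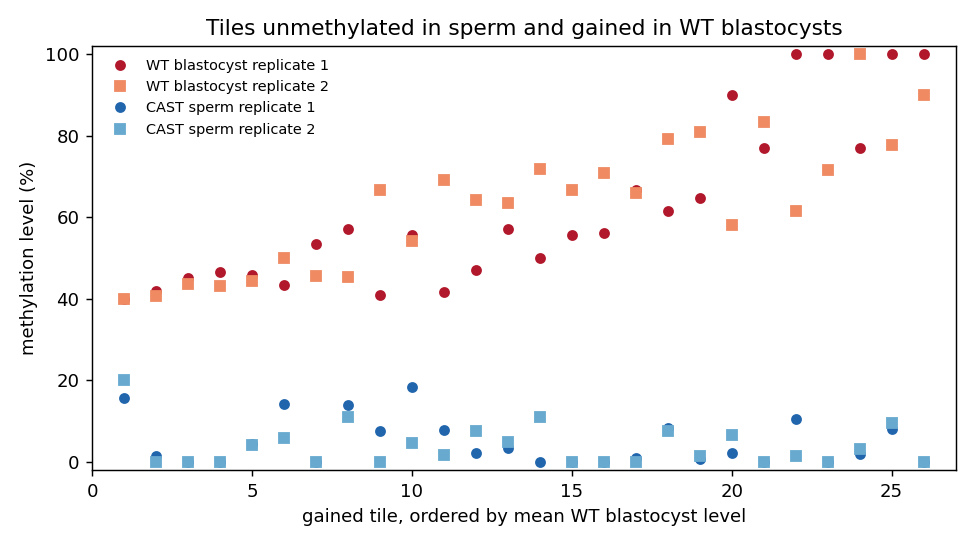
Methylation level (%, vertical axis) of each of the 26 gained tiles (horizontal axis, ordered by mean WT blastocyst level) in the WT blastocyst and sperm replicates. WT blastocyst points lie at 40% or more and sperm points at 20% or less by the choice of the tiles, and the WT blastocyst replicates of a tile often differ widely.

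The gained tiles were above their neighbours in class in the outside libraries. In WT zygotes 19 of them had enough counts and averaged 29.9 and 29.2%, against 2.23 and 2.09% in the sperm-unmethylated tiles that were not gained, a difference of 27.4 ± 0.362 points. In CKO blastocysts 17 of them averaged 23.8 and 23.3%, against 1.52 and 1.42%, a difference of 22.04 ± 0.280 points. In CKO zygotes the difference was 37.1 ± 7.32 points. Single tiles varied: 12 of the 19 were above both sperm libraries in both WT zygote libraries, and 4 were at 0% in both. Whether the methylation of these tiles lay on the sperm-derived or the maternal allele was not tested, since no allele assignment is given. Of the maternally methylated regions read above, Snrpn alone held methylated counts in WT blastocysts, at 15.3% in the pooled libraries.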

How the data were processed

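Per the labels, RRBS libraries were made from frozen sperm or embryos with MspI and bisulfite conversion. Bismark 0.10.1, Trim Galore and the build mm9 are named in the submitters' processing notes. Their settings and any allele assignment are not given there or in the labels. The deposited files give, per cytosine position, the authors' percent methylation and the methylated and unmethylated counts. Only the counts were used.

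Counts were summed over 100-bp autosomal tiles with Python 3.11.15, pandas 2.3.3 and numpy 2.4.6, and a tile needed 10 counts in each of the 4 libraries. A level is the percent of methylated counts in a tile, and class means weight tiles equally. The test was the quasi-likelihood F-test of edgeR 4.0.16, run in R 4.3.3 on both count columns, with negative binomial dispersion 0, a depth term per library, no replicate block and Benjamini-Hochberg adjustment at 0.05. The procedure was also run on simulated counts, in which few tiles changed and both groups had the same spread. In the data many tiles changed and WT blastocyst replicates of sperm-methylated tiles lay further apart, so that run does not vouch for the calls. Outside libraries were read where both had 10 counts.

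Named tiles are the 8 largest passing falls and rises, the 10 retained and 10 gained tiles with the highest lower WT blastocyst library, and the tiles at each threshold. Members and lists were chosen with earlier results of these data known. Alternatives were another test or dispersion, other count minimums, thresholds and units, a replicate block, all 10 libraries and each library left out. Same-numbered libraries did not deviate together. The gene and promoter tables at hand describe GRCm38, so no tile was given a gene and no sequence is printed. Reads carry no molecular identifiers. The exact intervals and the limit of 3 counts of the total for a count of 0 treat every count as independent. Since a read is counted at each position it covers, they are too narrow.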

Additional observations from a re-analysis of the deposited data

Results flagged for a closer look

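Chromosome X was outside the comparison, which used autosomes only. By the same coverage rule it held 24 sperm-unmethylated tiles, which averaged 0.999 and 2.40% in the WT blastocyst libraries (mean 1.70%), against 0.341 and 0.704% in the sperm libraries. These levels, in data not otherwise used, were above sperm in both WT blastocyst libraries, but the tiles were chosen for low sperm values. The difference was 1.18 ± 1.02 points, less than the gap between the WT blastocyst libraries. The 6 sperm-methylated tiles of chromosome X had 20.3 and 1.67% in WT blastocysts, against 95.6 and 93.8% in sperm.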

How the results depend on the processing

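The mean differences of the 4 tile classes kept their direction under all 11 or 14 alternatives run for each: -71.1 to -69.1 points in sperm-methylated tiles, -40.0 to -37.5 in sperm-intermediate, 0.317 to 0.967 in sperm-unmethylated and -39.7 to -19.2 over all tiles. The counts depended far more on the setting, and the number of tiles tested also changed with it. Falls numbered 11718 of 32160 tiles with a minimum of 5 counts and 2681 of 8851 with 20, beside 7429 of 19476 in the main run. They numbered 2125 of 7505 with all 10 libraries and 4034 of 8246 at the deepest position of each tile. The deepest position was an alternative chosen after seeing the data. Over the same 19476 tiles, rises numbered 524 by edgeR's likelihood ratio test and 768 by Fisher's exact test on pooled counts. They numbered 64 of 7505 with all 10 libraries, 66 of 16039 at single positions and 35 of 8246 at the deepest position. Limma on logit levels gave 6755 falls and 271 rises. A common dispersion gave 0 falls and 0 rises, with 6739 and 146 at an unadjusted p below 0.05; the cause was not tested. Leaving out a library gave 0 to 3382 falls and 0 to 29 rises; a group's lone library is then assumed to vary like the other group, and without either WT blastocyst library both were 0, with 9808 and 174 (without replicate 1) and 9320 and 179 (without replicate 2) at an unadjusted p below 0.05. With the replicate number as a block there were 6412 falls and 122 rises; the numbers do not pair the libraries (r of replicate 1 deviations -0.00441 over 19476 tiles).

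With a minimum of 5 counts, 517 retained and 2943 erased tiles were found among 12471 sperm-methylated tiles, and 41 gained among 14444 sperm-unmethylated. With 20 counts there were 72 and 292 among 1938, and 12 among 5652. The main run had 224 and 1208 among 6264, and 26 among 10116. In those same classes, stricter thresholds gave 39 retained, 796 erased and 9 gained, and looser ones 481, 1906 and 99. At the deepest position there were 138 retained of 4204 sperm-methylated tiles and 16 gained of 3269 sperm-unmethylated. Leaving out a library gave 231 to 1348 retained, 1302 to 3860 erased and 29 to 177 gained. The classes then held 6598 to 9726 sperm-methylated and 10335 to 13716 sperm-unmethylated tiles, and 1 WT blastocyst library alone passes more tiles. The tile chr10:61385301-61385400, at -18.2 points with all libraries, ranged from -38.4 to 1.92 points when a library was left out, and turned to 1.92 without WT blastocyst replicate 2 (edgeR adjusted p = 0.901). Single tiles were least alike between the WT blastocyst replicates at low depth. At 10 to 14 counts the replicate r was 0.265, against 0.561 at 50 or more. Tiles with more counts also held more positions, and the cause was not tested.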
